A study of Mus musculus with 36 samples.

Results

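Zbtb16 and Map7d2 are the pair of genes described here, out of 55487 gene identifiers in the deposited table. They were chosen by their read counts in GRwt/wt cells, few with vehicle and many with Dex. Their response in GRwt/wt is therefore given as a description, with no test. Both genes passed the filter on low counts, which left 15489 genes. That filter asks for enough counts in as many libraries as the smallest group holds, so each gene passed through the groups in which it is high.

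The data are RNA-seq counts of murine embryonic fibroblasts (MEFs), primary cells grown out of mid-gestation mouse embryos, treated for 5 h with 1 µM Dex, a synthetic glucocorticoid, or with solvent, here called vehicle. Run 1 holds 24 libraries of GRwt/wt, GRD/D, GRD+L/D+L and GRko/ko, and run 2 holds 12 libraries of a separate set of GRwt/wt cultures (replicates 4 to 6) and of GRL/L, always with 3 libraries per genotype and treatment. All mutations sit in the glucocorticoid receptor (GR): D is an alanine-to-threonine change in the DNA-binding domain, L an isoleucine-to-alanine change in the ligand-binding domain, D+L carries both, and GRko/ko is the receptor knockout. The labels give FVB/NJ as the strain throughout, whereas the methods of the study describe the parents of the knockout as 129 Sv. The GRL and GRD+L alleles were made by CRISPR/Cas9 in zygotes that carried D, with the GRD+L line going back to 1 pup. The study states that each of the 3 cultures of a genotype came from a different mouse.

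GR is a transcription factor that moves to the nucleus when it binds a glucocorticoid, and there it binds palindromic response elements as a dimer or acts through other DNA-bound factors. Zbtb16 encodes PLZF, a transcriptional repressor with a BTB domain for dimerisation and corepressor binding and zinc fingers for DNA. PLZF is known from the maintenance of spermatogonial stem cells, from the development of natural killer T cells, from limb patterning and from a fusion with the retinoic acid receptor in a rare leukaemia, and its gene is a known glucocorticoid target in several cell types. Map7d2 encodes a member of the MAP7 family, proteins that bind along microtubules and recruit and activate the motor kinesin-1. MAP7D2 is best known from neurons.

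Zbtb16 (ENSMUSG00000066687) lies on the minus strand of chromosome 9, from 48654297 to 48836222 in the mm10 build, with 2 annotated transcripts. Map7d2 (ENSMUSG00000041020) lies on the plus strand of the X chromosome, from 159414572 to 159498757, with 5 annotated transcripts. Of these, 1 starts at 159414572 and 2 start at 159459125, inside the gene. The remaining transcripts start at 159446008 and 159459137, and no window is shown for them. The bases upstream of the starts at 159414572 and 159459125 are shown. They come from RefSeq on GRCm38.p6, where 1 of the 2 genes matched, and read 5′ to 3′ on the plus strand, as 250 bases before the start, at chrX:159414322-159414571 for the outer start and chrX:159458875-159459124 for the inner start, and capitals mark each CG dinucleotide.
Map7d2, outer start: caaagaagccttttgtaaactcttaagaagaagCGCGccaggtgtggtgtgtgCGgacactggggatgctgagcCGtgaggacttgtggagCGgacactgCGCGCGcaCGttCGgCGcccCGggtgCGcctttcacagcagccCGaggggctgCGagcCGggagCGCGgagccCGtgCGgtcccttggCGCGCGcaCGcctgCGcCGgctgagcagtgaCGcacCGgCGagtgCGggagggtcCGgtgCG
Map7d2, inner start: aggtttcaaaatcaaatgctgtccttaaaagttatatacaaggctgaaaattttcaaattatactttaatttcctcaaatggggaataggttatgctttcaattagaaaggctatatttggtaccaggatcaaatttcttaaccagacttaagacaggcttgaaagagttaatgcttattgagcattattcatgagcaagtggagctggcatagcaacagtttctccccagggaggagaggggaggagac
The outer window has 69.2% G and C and 32 CG dinucleotides. The inner window has 37.2% G and C and 0 CG dinucleotides, beside medians of 52.4% and 6 over 32851 promoter windows of the same length. Each window was searched on both strands for 5 motifs, none of which it held. The palindromic receptor element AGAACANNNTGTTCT occurs in 0.00913% of all windows, and its core GNACANNNTGTNC, which the palindrome contains, in 0.387%. The receptor half-site AGAACA, also contained in the palindrome, occurs in 16.1% of them. For the TATA box, searched as TATAAA, the share is 12.4%. The AP-1 element TGANTCA occurs in 6.75% of the windows. Absence says only that these letters are not in these windows. The deposited counts are per gene and do not tell from which start a read came.

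Libraries held 15280166 to 19102035 counts in run 1 and 21532686 to 28662608 in run 2, so 1 count is worth less in run 2. Nr3c1, the gene of GR, ranged from 15.9 to 20.4 CPM, the count relative to the TMM-scaled library size, in the GRko/ko libraries and from 47.9 to 105 CPM in all others. Fibroblast markers (12 genes) summed to 36410 CPM or more in every library. Run 1 GRwt/wt and GRD/D libraries carried Xist at 165 to 305 CPM and at most 2.08 CPM of 4 Y-linked genes, whereas all other libraries carried 136 to 283 CPM of the Y-linked genes and at most 14.1 CPM of Xist. Sex thus coincides with run in GRwt/wt and with genotype in run 1, which matters for Map7d2 as an X-linked gene. All libraries of a genotype and run shared the same sex signal. Whether the replicates are separate cultures was not tested, and every SE and p-value treats them as such. The summed level of 10 macrophage markers also followed genotype, from 31.3 to 41.2 CPM in GRD+L/D+L to 2477 to 2935 CPM in GRko/ko. Nothing in bulk RNA tells fewer expressing cells from less RNA per cell.

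In GRwt/wt of run 1, Zbtb16 had 0, 0 and 0 counts with vehicle and 44, 32 and 40 counts with Dex. In GRwt/wt of run 2 it had 16, 7 and 10 counts with vehicle and 638, 1012 and 1039 counts with Dex. Vehicle and Dex libraries did not overlap in either run, which the choice of the gene by these counts favours. In CPM the level was 0 with vehicle and 2.38 ± 0.272 (SD, n = 3) with Dex in run 1, which makes it at least 35.99-fold higher with Dex if the vehicle group is set at the level that 3 counts over its libraries give. In run 2 it went from 0.397 ± 0.156 to 34.3 ± 7.80 CPM (SD, n = 3 each), a ratio of 86.3.

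**Figure D1:**
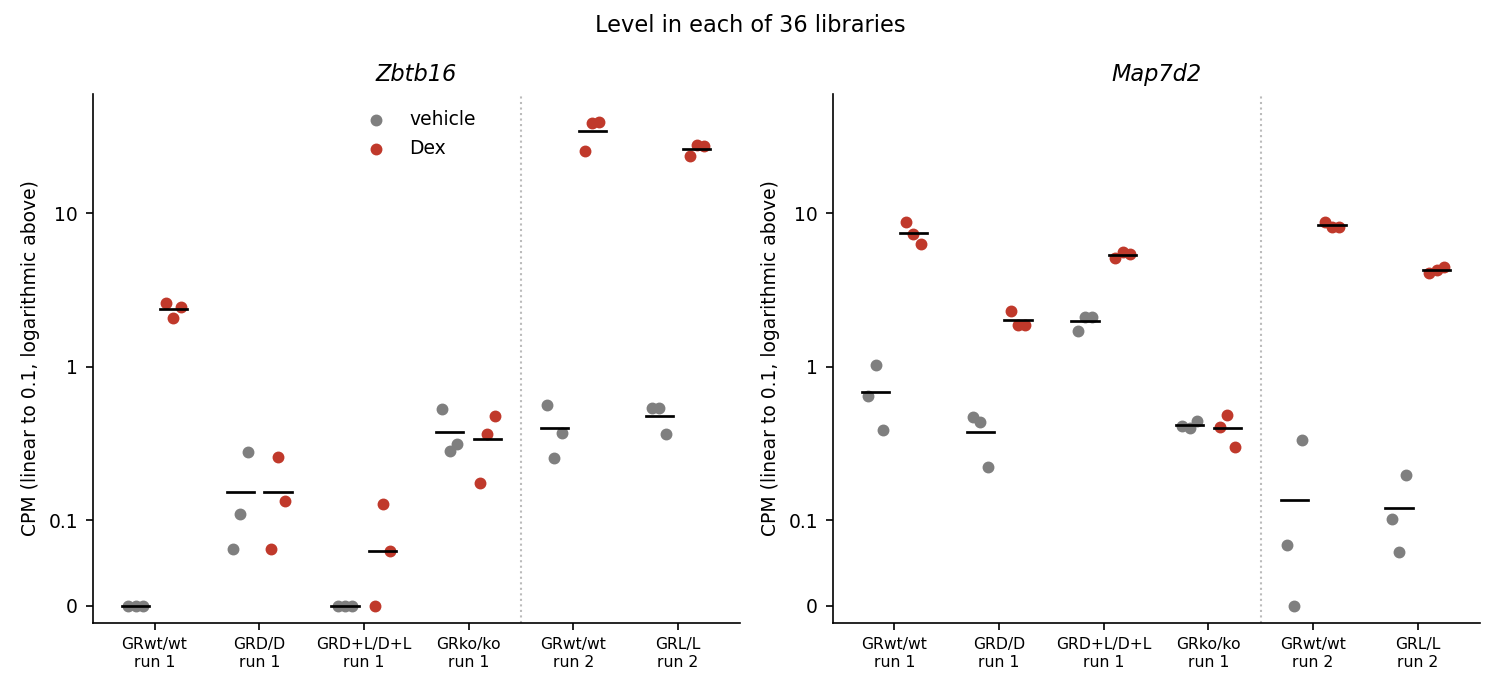
CPM of Zbtb16 and Map7d2 in each library (points: grey vehicle, red Dex; bars: mean of 3), for the 4 genotypes of run 1 and the 2 of run 2, on an axis that is linear to 0.1 and logarithmic above. Zbtb16 reached 23.5 CPM or more with Dex in all run 2 libraries and at most 2.60 CPM in run 1, while Map7d2 with Dex stood at 6.32 to 8.81 CPM in GRwt/wt of both runs.

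GRL/L cells, whose counts were not the GRwt/wt counts by which the genes were chosen, induced Zbtb16 too. The choice was made with earlier results of these data known. The GRL/L libraries had 16, 17 and 11 counts with vehicle and 632, 653 and 772 counts with Dex. The lowest Dex library lay far above the highest vehicle library. The share of all genes set apart in this way was not counted. The level rose from 0.481 ± 0.102 to 26.2 ± 2.32 CPM (SD, n = 3 each), a log2 fold change of 5.75 ± 0.197 (SE) with an adjusted p of 3.49e-21 by the quasi-likelihood test of edgeR, with p-values adjusted after Benjamini and Hochberg over all genes tested. Genes counted as raised by Dex had an adjusted p of at most 0.05 and a fold change of at least 2, and 1.5% of all genes tested met this in GRL/L. With Dex, GRL/L libraries (23.5 to 27.8 CPM) overlapped the GRwt/wt libraries of the same run (25.3 to 39.1 CPM). The increase in CPM was 76.0% ± 10.9 (SE) of that in GRwt/wt of run 2.

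No increase of Zbtb16 was detected in the other mutants. In GRD/D vehicle libraries held 1, 2 and 5 counts and Dex libraries 1, 4 and 2, so the groups overlapped fully. The log2 fold change was −0.03 ± 0.883 (SE, adjusted p = 0.991, edgeR), and the ratio of summed counts per library size was 0.978 with an exact 95% interval from 0.302 to 3.09 (Clopper-Pearson, counting error only). In GRD+L/D+L vehicle libraries held 0, 0 and 0 counts and Dex libraries 0, 2 and 1, and no fold is given for 3 counts against 0. In GRko/ko vehicle libraries held 9, 5 and 5 counts and Dex libraries 3, 6 and 8, with a log2 fold change of −0.16 ± 0.587 (SE, adjusted p = 1, edgeR) and a ratio of 0.896 (interval 0.438 to 1.82). Of all genes tested, 0.613% were raised in GRD/D, 0.271% in GRD+L/D+L and 0% in GRko/ko, where 0 genes passed in edgeR, 787 had an unadjusted p under 0.05 and DESeq2 called 1.

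The few Zbtb16 reads without induction were not spread evenly over the run 1 mutants. With vehicle, GRko/ko held 19 counts over 3 libraries, GRD/D held 8 and GRD+L/D+L held 0. GRko/ko was 5.71-fold higher than GRD+L/D+L if the latter is set at the level that 3 counts give. The exact 95% lower limit of the ratio was 4.21. The difference passed (adjusted p = 0.00159, edgeR with 12 group terms), in a comparison that called 14.4% of all genes. By the same measure GRD/D was 2.31-fold higher than GRD+L/D+L, with an exact lower limit of 1.52 (adjusted p = 0.0479, edgeR, 6.97% of all genes called). That call did not pass in 22 of the 36 fits that left out 1 library, with an adjusted p of up to 0.170. GRD/D against GRko/ko did not pass (adjusted p = 0.168, 13.9% called). With Dex, the 17 counts of GRko/ko against 3 of GRD+L/D+L gave a ratio of 5.27 (exact 95% interval 1.52 to 28.1, adjusted p = 0.0400, 14.7% called). That call was lost without Dex replicate 1 of GRD+L/D+L (0.1445), Dex replicate 3 of GRD+L/D+L (0.0853), Dex replicate 2 of GRko/ko (0.0789) or Dex replicate 3 of GRko/ko (0.1441). The remaining Dex comparisons of Zbtb16 did not pass, with adjusted p-values of 0.258 for GRD/D against GRko/ko (13.9% called) and 0.482 for GRD/D against GRD+L/D+L (7.13% called). Macrophage markers followed the same order with vehicle, at 2638 to 2935 CPM in GRko/ko, 644 to 717 CPM in GRD/D and 33.2 to 41.2 CPM in GRD+L/D+L, with none of the 10 at 0 in any library. Their part in the Zbtb16 level was not tested, and for GRD/D against either other genotype sex and genotype cannot be told apart.

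Map7d2 was not fully silent with vehicle in GRwt/wt, and it reached like levels with Dex in both runs. GRwt/wt of run 1 had 10, 15 and 6 counts with vehicle and 149, 112 and 103 counts with Dex. GRwt/wt of run 2 had 2, 0 and 9 counts with vehicle and 221, 214 and 217 counts with Dex. No vehicle library came near a Dex library, which the choice of the gene by these counts favours. The level went from 0.689 ± 0.321 to 7.46 ± 1.25 CPM in run 1 and from 0.135 ± 0.176 to 8.35 ± 0.350 CPM in run 2 (SD, n = 3 each). These are ratios of 10.8 and 61.9, and the second rests on 11 vehicle counts: it was 237 without vehicle replicate 6 and 41.2 without vehicle replicate 5. Over all genes tested, 2.08% were raised in GRwt/wt in the model with both runs. This share is the one on which the pair was chosen, so nothing is read from it.

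Map7d2 was raised by Dex in all 3 genotypes with a mutant receptor and not in the knockout. GRL/L had 3, 2 and 6 counts with vehicle and 110, 100 and 126 with Dex, a rise from 0.121 ± 0.0694 to 4.27 ± 0.177 CPM (SD, n = 3 each) and a log2 fold change of 5.08 ± 0.386 (SE, adjusted p = 1.28e-12, edgeR). GRD/D had 7, 8 and 4 counts with vehicle and 35, 29 and 28 with Dex, a rise from 0.377 ± 0.134 to 2.02 ± 0.256 CPM and a log2 fold change of 2.42 ± 0.447 (SE, adjusted p = 0.000233, edgeR). GRD+L/D+L had 26, 33 and 31 counts with vehicle and 80, 87 and 84 with Dex, a rise from 1.98 ± 0.233 to 5.36 ± 0.237 CPM and a log2 fold change of 1.44 ± 0.271 (SE, adjusted p = 0.000522, edgeR). In each of these genotypes all 3 Dex libraries lay above all 3 vehicle libraries. The share of all genes that do so was not counted. Over all genes tested, 1.5% were raised in GRL/L, 0.613% in GRD/D and 0.271% in GRD+L/D+L.

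GRko/ko, the control without receptor function, had 7, 7 and 7 counts of Map7d2 with vehicle and 7, 8 and 5 with Dex. The level was 0.417 ± 0.0233 CPM with vehicle and 0.397 ± 0.0936 CPM with Dex (SD, n = 3 each). The log2 fold change was −0.07 ± 0.614 (SE, adjusted p = 1, edgeR), and the ratio of summed counts was 0.954 with an exact 95% interval from 0.490 to 1.85.

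**Figure D2:**
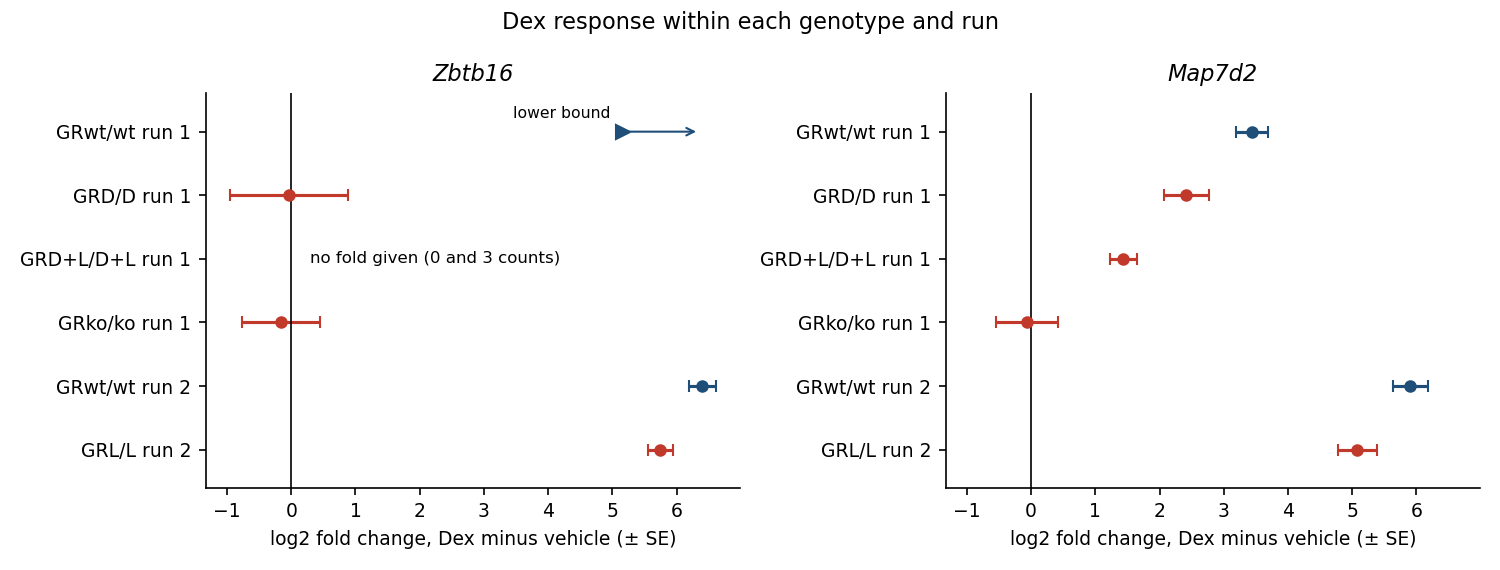
Fitted log2 fold change of Dex against vehicle (± SE, 3 libraries per treatment, model with a term for each group) in each genotype and run, in blue for GRwt/wt, on which the genes were chosen, and in red for the others. The triangle with an arrow is the lower bound of Zbtb16 in GRwt/wt of run 1, drawn from the ratio of 35.99, and the Map7d2 estimates run from −0.07 in GRko/ko to 5.91 in GRwt/wt of run 2.

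Differences of the Map7d2 response between genotypes of run 1 were tested as interactions, in which GRko/ko serves as the control for both receptor mutants. The log2 response of GRD/D exceeded that of GRko/ko by 2.48 ± 0.621 (SE, adjusted p = 0.0103, edgeR), and 6.05% of all genes differed in that test. The response of GRD+L/D+L exceeded that of GRko/ko by 1.504 ± 0.539 (SE), which did not pass (adjusted p = 0.152, 2.74% of genes differed), with an approximate 95% interval from 0.45 to 2.56. Between GRD/D and GRD+L/D+L the difference was 0.98 ± 0.434 (SE, adjusted p = 0.415, 0.0775% of genes differed), with an interval from 0.13 to 1.83. The intervals are for single comparisons, before adjustment over all genes.

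The starting level of Map7d2 differed between the mutants, so its fold change and its level with Dex gave different orders. With vehicle, GRD+L/D+L exceeded GRko/ko by 2.23 ± 0.344 on the log2 scale (SE, adjusted p = 1.09e-06, edgeR) and GRD/D fell below GRD+L/D+L with a log2 difference of −2.39 ± 0.352 (SE, adjusted p = 9.49e-07). GRD/D and GRko/ko with vehicle differed by −0.16 ± 0.488 (SE, adjusted p = 0.821). Of all genes, 14.4%, 6.97% and 13.9% were called in these vehicle comparisons, in the order given. With Dex, the log2 differences were 3.73 ± 0.285 for GRD+L/D+L over GRko/ko (SE, adjusted p = 8.97e-14), 2.33 ± 0.346 for GRD/D over GRko/ko (SE, adjusted p = 6.18e-07) and −1.41 ± 0.210 for GRD/D against GRD+L/D+L (SE, adjusted p = 1.25e-06). In these Dex comparisons 14.7%, 13.9% and 7.13% of all genes were called, in the order given, so such differences of level were common. The vehicle libraries of GRD+L/D+L (1.71 to 2.11 CPM) overlapped the Dex libraries of GRD/D (1.86 to 2.31 CPM).

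GRD/D libraries were Xist-positive and those of GRD+L/D+L and GRko/ko carried Y-linked transcripts, so for the comparisons of GRD/D with either of them genotype and sex cannot be told apart. GRD+L/D+L and GRko/ko shared the Y-linked signal. Their macrophage markers lay at opposite ends of the range, with all 10 detected, and the cultures may differ in strain. The part of these in the higher vehicle level of Map7d2 in GRD+L/D+L was not tested. Within each genotype the Dex and vehicle libraries had the same sex signal.

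Set against GRwt/wt of the same run, as a description, the Dex-minus-vehicle gain of Map7d2 was 24.2% ± 3.63 in GRD/D, 49.9% ± 6.19 in GRD+L/D+L and 50.5% ± 1.93 in GRL/L (SE). On the log2 scale the response minus that of GRwt/wt was −1.02 in GRD/D, −2.003 in GRD+L/D+L and −0.83 in GRL/L. With Dex, GRL/L libraries (4.10 to 4.45 CPM) all lay below those of GRwt/wt of run 2 (8.13 to 8.75 CPM). The same held for GRD+L/D+L (5.09 to 5.55 CPM) against GRwt/wt of run 1 (6.32 to 8.81 CPM). The choice of Map7d2 by a high GRwt/wt level with Dex favours such gaps, and the share of all genes that show them was not counted. GRwt/wt of run 1 was Xist-positive and GRD+L/D+L carried Y-linked transcripts, so between them genotype and sex cannot be told apart.

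Ordered by mean CPM, Map7d2 was highest in GRwt/wt of run 2 with Dex, followed by GRwt/wt of run 1 with Dex, whose libraries overlapped. Then came the Dex groups of GRD+L/D+L, GRL/L and GRD/D, each below the one before without overlap. The vehicle group of GRD+L/D+L followed and overlapped GRD/D with Dex. GRL/L is of run 2 and the other mutants are of run 1, so genotype and run cannot be told apart between them. The 6 lowest groups, from 0.121 to 0.689 CPM, overlapped each with its neighbour. For Zbtb16 the order began with GRwt/wt of run 2 and GRL/L with Dex, which overlapped, followed by GRwt/wt of run 1 with Dex, which stood apart on both sides. The other 9 groups, from 0 to 0.481 CPM, overlapped each with its neighbour. The share of all genes with groups set apart from the next was not counted.

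Of the pair, Zbtb16 differed more between the runs of GRwt/wt with Dex. Its level with Dex was 14.4-fold higher in run 2 than in run 1, and with vehicle at least 6.01-fold higher, whereas Map7d2 was 1.12-fold higher with Dex and 5.10-fold lower with vehicle in run 2. Over the 322 genes raised by Dex in GRwt/wt the median ratio of run 2 to run 1 with Dex was 2.14. Zbtb16 ranked 39 and Map7d2 ranked 218 among them. Sex differed between the runs of GRwt/wt, and the summed level of 10 muscle markers, led by Acta1, was 374 to 804 CPM in run 1 and 18.3 to 32.0 CPM in run 2. Among these markers Acta1 reached 756 CPM and Des 140 CPM, and 6 of the 10 stayed under 1 CPM in every library. Run, sex and culture cannot be told apart here.

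PLZF is a hallmark of natural killer T cells and of germ line stem cells, and MAP7D2 is best known from neurons, so the markers of these cells were looked at in the same libraries. Markers of natural killer T and T cells (10 genes) summed to 1.52 to 4.30 CPM over all libraries, with Cd3d at 0 and 8 of 10 under 1 CPM in every library. In GRwt/wt of run 2 they stood at 2.95 to 3.68 CPM with vehicle and 1.81 to 2.57 CPM with Dex. Germ cell markers (10 genes) summed to 24.4 to 130 CPM, nearly all from Gfra1, with Nanos2 at 0 and 8 of 10 under 1 CPM in every library. Neuronal markers (10 genes) summed to 47.9 to 124 CPM, mostly from Stmn2, Gap43 and Tubb3, with 4 of 10 under 1 CPM in every library and none at 0 throughout. In run 2 they were 52.5 to 58.1 CPM with Dex and 56.0 to 59.6 CPM with vehicle in GRwt/wt. In run 1 GRwt/wt they were 94.1 to 98.2 CPM with Dex and 87.1 to 90.3 CPM with vehicle, and in GRD/D 79.8 to 84.2 and 72.4 to 76.7 CPM. In GRL/L the neuronal sums were 47.9 to 53.85 CPM with Dex and 58.2 to 60.39 CPM with vehicle. In GRko/ko they were 84.23 to 90.3 CPM with Dex and 86.85 to 90.45 CPM with vehicle. GRD+L/D+L, with the highest vehicle level of Map7d2, had the highest sums (119 to 124 CPM with Dex, 112 to 123 CPM with vehicle). The part of these markers in the Zbtb16 and Map7d2 levels was not tested.

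Induction from near silence was shared by 57 genes, defined as genes with a mean under 0.5 CPM over the 6 GRwt/wt vehicle libraries and a raised level with Dex of at least 4-fold in GRwt/wt. Among the 10 with the highest CPM with Dex were Zbtb16, Map7d2, Hif3a, Fam107a, Sult1a1, Ackr4, Trim63, Lyve1 and Hsf2bp. Of these, Hif3a encodes a hypoxia-inducible factor subunit, Sult1a1 a phenol sulfotransferase, Ackr4 a chemokine scavenger, Trim63 the muscle ubiquitin ligase MuRF1, and Lyve1 a hyaluronan receptor. Per kilobase of annotated exon (5283 bases for Zbtb16, 4121 for Map7d2), Zbtb16 stood at 3.47 and Map7d2 at 1.92 CPM per kilobase over the 6 GRwt/wt Dex libraries, ranks 1 and 3 of the 57. In run 1 alone Map7d2 ranked 1 at 1.81 and Zbtb16 ranked 17 at 0.450 CPM per kilobase. In run 2 alone Zbtb16 ranked 1 at 6.49 and Map7d2 ranked 4 at 2.03.

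In the mutants, 46 of the 57 genes were raised in GRL/L, 6 in GRD/D, 3 in GRD+L/D+L and 0 in GRko/ko, and none was lowered. Over all genes tested the shares raised were 1.5%, 0.613%, 0.271% and 0%, and since the 57 were chosen on GRwt/wt their counts are a description. With Dex, 45 of the 57 were higher in GRwt/wt of run 2 than of run 1, with a median ratio of 4.41. GRL/L is of run 2 and the other mutants are of run 1, so between them genotype and run cannot be told apart in these counts. Map7d2 was among those raised in all 3 receptor mutants. Chst13, named here after its values were seen, was the other such gene. Lyve1, Ms4a4a and Sptb were also among the genes raised in GRD/D, and the remaining gene in GRD+L/D+L was Wfdc1. The level with Dex was lower in GRL/L than in GRwt/wt of run 2 for 45 of the 57, with a median of 64.8% over the 56 genes with a level there, beside 76.5% for Zbtb16 and 51.1% for Map7d2. In GRD/D against GRwt/wt of run 1 the median over 54 genes was 24.9%, beside 6.40% for Zbtb16 and 27.0% for Map7d2. In GRD+L/D+L it was 28.4%, beside 2.70% and 71.8%. In GRko/ko, where no gene was called, it was 30.8%, beside 14.3% for Zbtb16 and 5.32% for Map7d2, so the medians of GRD/D and GRD+L/D+L were no higher than that of the knockout. The genes were chosen for high GRwt/wt levels with Dex, which by itself favours lower levels in the other genotypes, and no test is given.

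**Figure D3:**
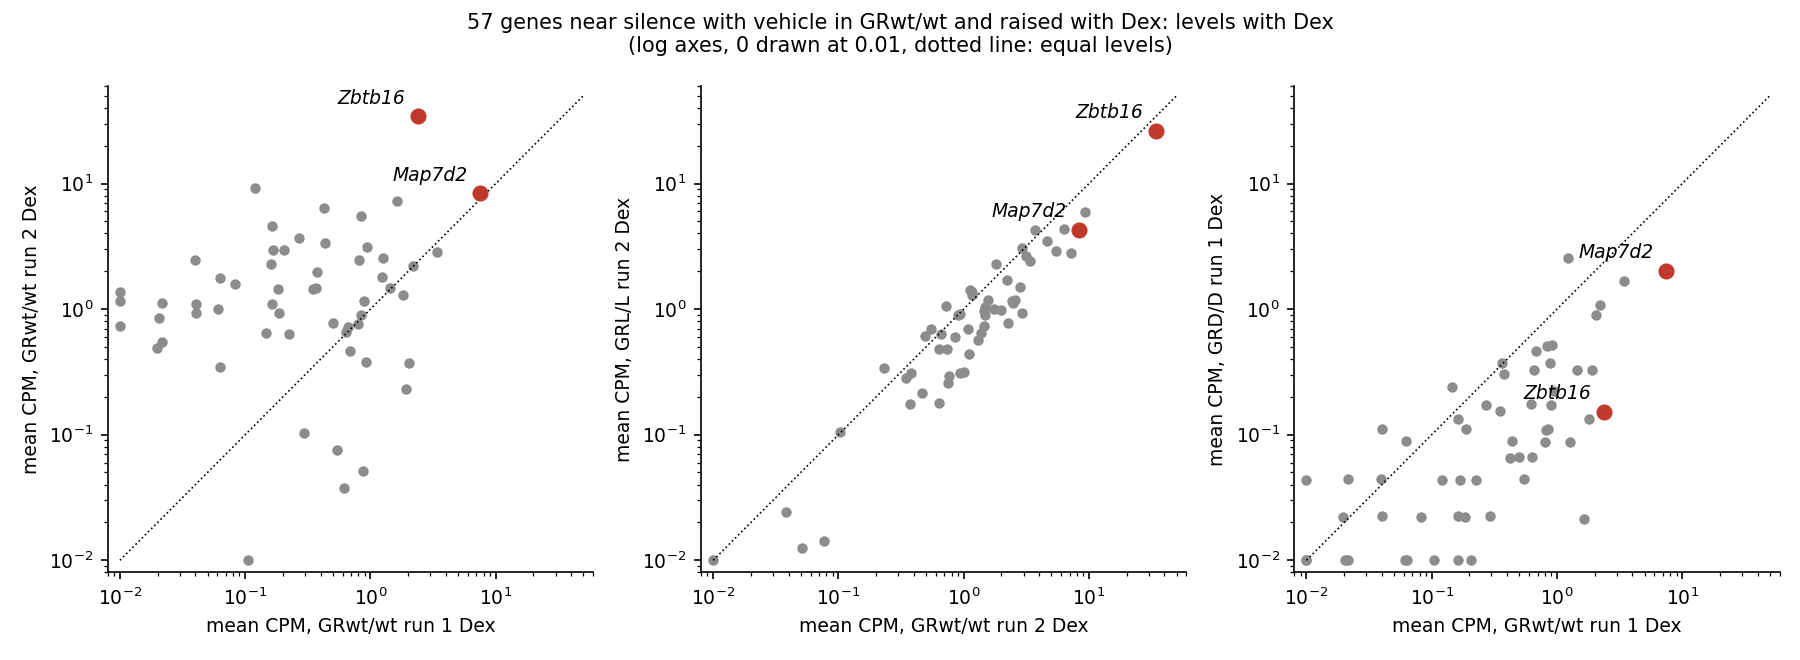
Mean CPM with Dex (3 libraries per group, log axes, 0 drawn at 0.01) of the 57 near-silent induced genes in GRwt/wt of run 2 against run 1, in GRL/L against GRwt/wt of run 2, and in GRD/D against GRwt/wt of run 1, with equal levels dotted. Zbtb16 (2.38 and 34.3 CPM in the 2 runs) lies far off the line in the first panel and Map7d2 (7.46 and 8.35 CPM) near it, and in GRD/D Zbtb16 fell to 0.152 CPM and Map7d2 to 2.02 CPM.

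The relatives and partners of both genes were looked at in fixed lists, and genes named from them that did not change by 2-fold or more were picked after their values were seen. Over all genes tested, 2.08% were raised and 1.36% lowered by 2-fold or more in GRwt/wt, 1.04% were lowered in GRL/L, 0.323% in GRD/D, 0.116% in GRD+L/D+L and 0% in GRko/ko. At an adjusted p of at most 0.05 without a limit on size, 16.2% of all genes rose and 17.4% fell in GRwt/wt, 8.12% and 9.57% in GRL/L, 4.79% and 5.34% in GRD/D, 2.56% and 1.45% in GRD+L/D+L, and 0% in GRko/ko. With so small a share changed by 2-fold, a list of this length with 0 such genes is near the background. Of 45 other BTB zinc finger genes, 43 were tested and 0 changed by 2-fold or more in any genotype. At the adjusted p alone, 5 rose and 14 fell in GRwt/wt, 1 rose and 2 fell in GRL/L, 3 rose and 4 fell in GRD/D, 2 rose and 0 fell in GRD+L/D+L, and 0 changed in GRko/ko. Their median log2 fold change was −0.07 in GRwt/wt, beside −0.01 over all genes tested. The strongest of the small rises was Zbtb46, a factor of classical dendritic cells, with 0.94 ± 0.139 in GRD/D (SE, adjusted p = 7.80e-06, edgeR) and 0.94 ± 0.135 in GRD+L/D+L (adjusted p = 8.07e-06).

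PLZF represses through corepressors and other partners. Of 19 corepressors and partners 18 were tested, 0 changed by 2-fold or more, and at the adjusted p alone 3 rose and 4 fell in GRwt/wt, 3 rose and 5 fell in GRL/L, 3 rose in GRD/D and 2 in GRD+L/D+L. In GRwt/wt 16.2% of all genes rose and 17.4% fell by the same measure. Those that rose in GRwt/wt were the deacetylase Hdac7 (0.60 ± 0.0681), the ubiquitin ligase scaffold Cul3 (0.16 ± 0.0399) and the LIM protein Fhl2 (0.33 ± 0.0430, log2 ± SE). The corepressor Ncor1, at 146 CPM with vehicle in GRwt/wt, had −0.03 ± 0.0609 there (adjusted p = 0.722, edgeR). Hdac7 also rose in GRL/L (0.39), GRD/D (0.69) and GRD+L/D+L (0.53), and in GRko/ko it had −0.08 ± 0.0986 (adjusted p = 1).

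Of 12 genes described as PLZF targets, 11 were tested and 0 changed by 2-fold or more. At the adjusted p alone, 5 rose and 0 fell in GRwt/wt and 4 rose and 1 fell in GRL/L, against 0 and 1 in GRD/D and 0 and 0 in GRD+L/D+L and GRko/ko. The shares over all genes that rose were 16.2% in GRwt/wt, 8.12% in GRL/L and 4.79% in GRD/D. Those that passed at the adjusted p alone in GRwt/wt were Myc (0.58), Id2 (0.22), Pik3r1 (0.77), Ddit4 (0.37) and Bid (0.22, log2 fold change), and Ddit4 is also a textbook Dex-induced gene. Myc is repressed by PLZF in other cells. Ccna2, the cyclin A2 gene and a PLZF-repressed target, had −0.01 ± 0.0430 in GRwt/wt (adjusted p = 0.897, edgeR).

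Of the other 3 MAP7 family genes, 0 changed by 2-fold or more with an adjusted p of at most 0.05. Map7, the founding member, stood at 0.467 CPM with vehicle in GRwt/wt and had a log2 fold change of −0.40 ± 0.292 there (adjusted p = 0.315, edgeR) and −1.08 ± 0.433 in GRL/L (adjusted p = 0.0844). Map7d1, at 311 CPM with vehicle in GRwt/wt, had −0.07 ± 0.0418 in GRwt/wt (adjusted p = 0.183), −0.17 ± 0.0592 in GRL/L (adjusted p = 0.0435) and 0.16 ± 0.0588 in GRD/D (adjusted p = 0.0767). Map7d3, at 2.40 CPM, had 0.15 ± 0.130 in GRwt/wt (adjusted p = 0.404) and 0.28 ± 0.162 in GRL/L (adjusted p = 0.278).

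Kinesin-1 is the motor that MAP7 proteins recruit. All 7 of its subunit genes were tested and 0 changed by 2-fold or more. At the adjusted p alone 1 rose and 4 fell in GRwt/wt, 1 rose and 2 fell in GRL/L, 1 rose and 1 fell in GRD/D, and 1 rose in GRD+L/D+L. Over all genes 16.2% rose and 17.4% fell in GRwt/wt. The gene that rose was the light chain Klc1 in each case, with 0.23 in GRwt/wt, 0.18 in GRL/L, 0.15 in GRD/D and 0.17 in GRD+L/D+L (log2 fold change). The ubiquitous heavy chain Kif5b, at 280 CPM with vehicle in GRwt/wt, had −0.10 ± 0.0338 there (adjusted p = 0.0219, edgeR).

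Of 30 other microtubule-binding genes 26 were tested, and 1 changed by 2-fold or more. That gene was Mtcl1, a microtubule crosslinker, which fell in GRwt/wt (−1.02 ± 0.0821, adjusted p = 1.41e-12, edgeR) and with smaller values in GRL/L (−0.68), GRD/D (−0.56) and GRD+L/D+L (−0.54). At the adjusted p alone, 3 rose and 8 fell in GRwt/wt, 3 rose and 6 fell in GRL/L, 2 and 2 in GRD/D, and 1 and 1 in GRD+L/D+L, beside 16.2% of all genes that rose and 17.4% that fell in GRwt/wt. Map2, a neuronal microtubule protein, rose by 0.69 in GRwt/wt, 0.69 in GRL/L, 0.41 in GRD/D and 0.69 in GRD+L/D+L (log2). Median log2 fold changes in GRwt/wt were −0.03 over the microtubule list and −0.13 over kinesin-1, beside −0.01 over all genes.

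Known Dex-induced genes give the scale of the response. Of 15 such genes all were tested, and 11 were raised in GRwt/wt, 11 in GRL/L, 3 in GRD/D, 1 in GRD+L/D+L and 0 in GRko/ko, while Angptl4, induced by glucocorticoids in liver and fat, fell in GRwt/wt (−1.66) and GRL/L (−1.46). Over all genes tested the shares raised were 2.08%, 1.5%, 0.613%, 0.271% and 0%, in the order of genotypes given. GRL/L is of run 2 and the other mutants are of run 1, so between them genotype and run cannot be told apart. The median log2 fold change of the 15 genes was 1.52 in GRwt/wt, 1.21 in GRL/L, 0.37 in GRD/D and 0.42 in GRD+L/D+L. Sgk1, a kinase of sodium transport, had 1.42 in GRwt/wt, 0.41 in GRD/D and 0.42 in GRD+L/D+L, and the metallothionein Mt2 had 3.803, 0.62 and 0.44. Klf9, a Krüppel-like factor, had 1.15, 0.37 and 0.42. Per1, a clock gene, kept 1.86 in GRD/D and 1.42 in GRD+L/D+L beside 1.964 in GRwt/wt.

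The profiles of Zbtb16 and Map7d2 over the 36 libraries correlated with each other at only r = 0.473 (Pearson, log2 CPM with a prior count of 2). These correlations are descriptions, since the libraries share runs, genotypes and treatments. The 5 genes most like Zbtb16 were Sult1a1 (0.966), Nedd9, an adhesion scaffold (0.958), Tsc22d3, the glucocorticoid-induced leucine zipper (0.955), Nfil3, a bZIP repressor (0.955), and Pik3r1, the p85 subunit of PI3-kinase (0.952). All 5 were higher with Dex in run 2 than in run 1, which the choice by correlation with Zbtb16 favours. For Tsc22d3 the mean went from 93.1 to 403 CPM and for Sult1a1 from 0.425 to 6.33 CPM. With a prior count of 0.5 only 3 of these 5 were among the first 5, and with Spearman's correlation 1.

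The 5 genes most like Map7d2 were Rilpl1, a Rab effector (0.933), Sgk1 (0.926), Agfg2 (0.918), Anxa1, an anti-inflammatory annexin (0.914), and Wee1, a mitotic kinase (0.913). Like Map7d2 these were higher with Dex in GRD/D than in GRko/ko, which the choice by correlation with Map7d2 favours. The means were 113 against 91.2 CPM for Sgk1 and 33.0 against 21.6 CPM for Wee1. Rilpl1 and Anxa1 were also higher in GRD+L/D+L with vehicle (42.1 and 1118 CPM) than in GRko/ko with vehicle (31.4 and 908 CPM).

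**Figure D4:**
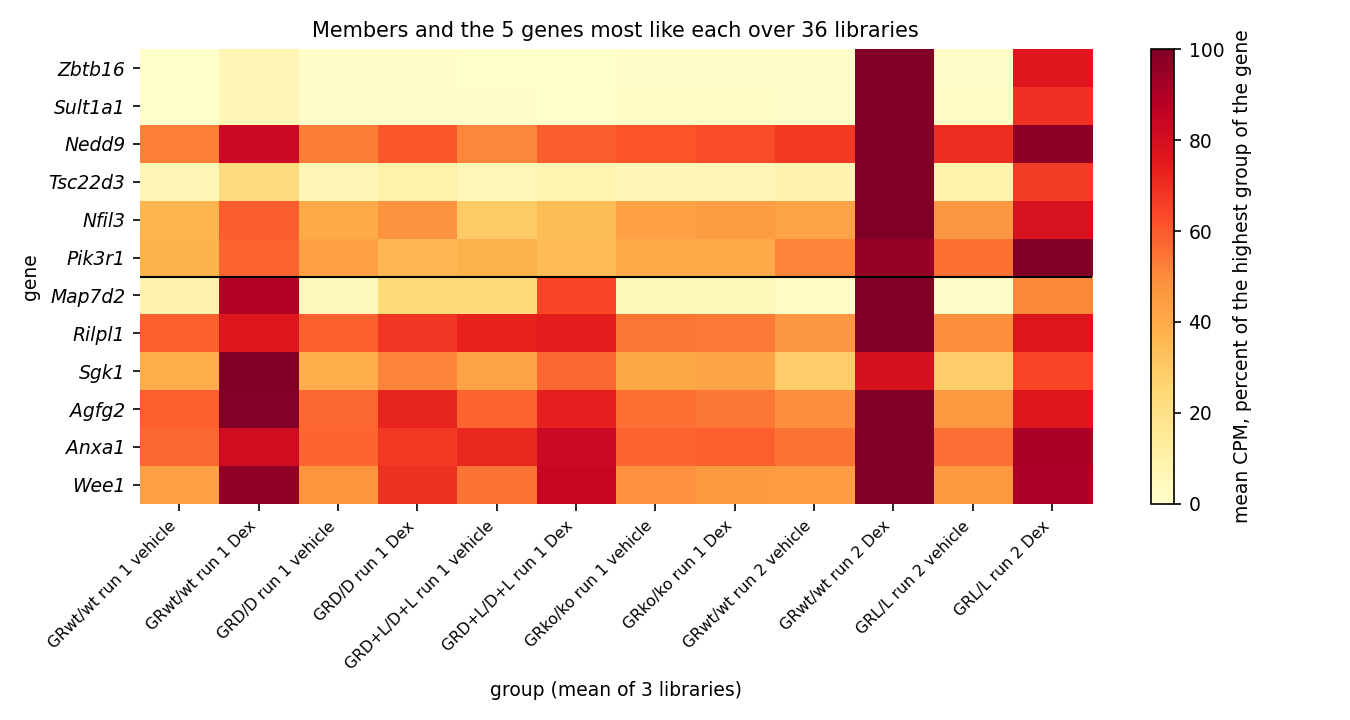
Mean CPM in each of the 12 groups as a percentage of the highest group of the same gene, for Zbtb16 and the 5 genes most like it (above the line) and for Map7d2 and the 5 most like it (below). Zbtb16 and Sult1a1 stood at 6.94% and 6.72% of their maximum in GRwt/wt of run 1 with Dex, whereas Map7d2 stood at 89.4% there, at 64.2% in GRD+L/D+L with Dex and at 24.1% in GRD/D with Dex.

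The genes next to the pair were looked at as well. Among the 3 nearest tested genes on each side of Zbtb16 (Nnmt, Gm5617, Rbm7, Usp28, Zw10 and Ankk1) and of Map7d2 (Eif1ax, Rps6ka3, Cnksr2, Bclaf3, Sh3kbp1 and Map3k15), 0 of 12 were called in any genotype, while 5 had an adjusted p of at most 0.05 in GRwt/wt. By these measures 2.08% of all genes were raised and 1.36% lowered in GRwt/wt, and 16.2% rose and 17.4% fell at the adjusted p alone, so these counts are near the background. The largest absolute log2 fold change among them was 0.606 in GRwt/wt, for Ankk1, which fell (adjusted p = 0.0125, edgeR). Nnmt, 49.1 kb from Zbtb16, had 0.11 in GRwt/wt (adjusted p = 0.221) and 0.37 in GRL/L (adjusted p = 0.00480). Bclaf3, 27.9 kb beyond Map7d2, had −0.32 in GRwt/wt (adjusted p = 0.000863), and Eif1ax, 24.6 kb before it, had 0.05 (adjusted p = 0.345). No annotated gene overlaps Zbtb16. Inside Map7d2 lies Gm23806, annotated as an rRNA, with 0 counts in all libraries.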

How the data were processed

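The authors deposited a table of raw read counts per gene for 36 MEF libraries (TruSeq, NextSeq). Reads were aligned to mm10 with HISAT2 2.1.0, and uniquely mapped reads were counted with featureCounts 2.0.0. The strand setting and the annotation release were not given in the sources used here, so reads from overlapping antisense genes may not be separated.

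Totals were 15280166 to 28662608 counts per library. All 36 columns were matched to the labels by name, and 55141 of 55487 identifiers had a symbol in the gene names used. With filterByExpr 15489 genes were tested, holding 99.93% of the counts. The tests were quasi-likelihood tests in edgeR 4.0.16 (R 4.3.3) with TMM scaling and a design of genotype-by-treatment groups plus run; interactions and levels between mutants came from a model with 12 group terms. Genes were called at an adjusted p of at most 0.05 and, except for interactions, a log2 difference of at least 1. Where a group had 0 counts, folds are bounds against 3 counts over the group and leave out the counting error of the other group. Exact 95% intervals cover counting error only. The tests of Dex responses and of a response difference were checked on simulated data with the same spread for all genes. That check was not set up for groups at 0 counts and did not cover differences of level between mutants.

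Zbtb16, Map7d2 and the gene lists were chosen with earlier results of these data known. Genes were named by a rule: list members that were called (at most 4 per list), all MAP7 genes, the 5 genes of highest correlation, the 10 highest of the near-silent genes and the 3 nearest genes on each side. A gene that this rule names is not reported here. Replicate libraries differed by 1.38 to 5.95 times the sampling noise, so none was a copy of another. Alternatives were DESeq2 1.42.0, its size factors, other filters, a replicate block, run 1 alone, and leaving out each library.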

Additional observations from a re-analysis of the deposited data

Results flagged for a closer look

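The Map7d2 response to Dex differed between GRD/D and GRko/ko in run 1. The log2 response was larger in GRD/D by 2.48 ± 0.621 (SE). The test of that difference passed (adjusted p = 0.0103, edgeR, 3 libraries per group), and 6.05% of all genes differed in it. All 3 GRD/D libraries with Dex (28 to 35 counts) lay above the 3 with vehicle (4 to 8 counts), whereas in GRko/ko 7, 8 and 5 counts with Dex stood beside 7 in each vehicle library. The share of all genes that do so was not counted. Genotype and sex cannot be told apart in this comparison.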

How the results depend on the processing

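Of 1557 alternative values for 47 results, 1473 kept their direction and side of the threshold or stayed within the limit set for counts and ratios. The calls of Map7d2 in GRL/L, GRD/D and GRD+L/D+L, of Zbtb16 in GRL/L and of the Map7d2 difference between GRD/D and GRko/ko (log2 2.20 to 2.65 with 1 library left out) passed under every alternative in which the genes were tested. The pair did not pass the filter of at least 10 counts in every library, and there the numbers of genes called were 130 in GRwt/wt, 91 in GRL/L, 45 in GRD/D and 20 in GRD+L/D+L, 794, 836 and 362 for the Dex levels of GRD/D against GRko/ko, GRD+L/D+L against GRko/ko and GRD/D against GRD+L/D+L, and 764, 831 and 345 for the same vehicle levels, since fewer genes were tested. Without a filter 8 genes were called in GRko/ko and 87 for the response difference of GRD/D and GRD+L/D+L (12 as reported). DESeq2 gave 1 and 40 for these, its size factors in edgeR gave 0 for the response difference and an adjusted p of 0.05047 for the Zbtb16 vehicle level of GRD/D against GRD+L/D+L, and run 1 alone gave 183 genes in GRwt/wt and 2 for the response difference. The cause of these shifts was not tested.

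Same-numbered libraries did not deviate together (18 pairs, correlations of −0.0787 to 0.116), so no pairing by number was seen. With a replicate block the response difference counted 2 genes, the Zbtb16 value in GRD/D turned to 0.017 (adjusted p = 0.996, edgeR), and Map7d2 had 5.08, 2.40 and 1.44 in GRL/L, GRD/D and GRD+L/D+L. The block changed no call of a Dex response or response difference of either gene.

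With 1 library left out, values near 0 changed sign: Zbtb16 ran from −0.618 to 0.721 in GRD/D and from −0.483 to 0.172 in GRko/ko, and Map7d2 from −0.228 to 0.0987 in GRko/ko and from −0.317 to 0.126 for the vehicle level of GRD/D against GRko/ko. Adjusted p-values for Zbtb16 ran from 0.00907 to 0.1445 for the Dex level of GRD+L/D+L against GRko/ko and from 0.0112 to 0.170 for the vehicle level of GRD/D against GRD+L/D+L (edgeR). Counts of genes ran from 0 to 3 in GRko/ko and from 0 to 42 for the response difference. In GRwt/wt the Zbtb16 ratio ran from 23.8 to 38.3 as a bound in run 1 and from 73.2 to 109 in run 2, and the Map7d2 ratio from 8.90 to 14.4 in run 1 and from 41.2 to 237 in run 2, with run 2 over run 1 at 1.04 to 1.23 with Dex. Sums of 0 to 33 vehicle counts per group limit these ratios in GRwt/wt.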
